A study of Mus musculus with 12 samples.

Results

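The regions described here are all ChIP-seq peaks called for NELFA and for RNA polymerase II phosphorylated on serine 5 of its tail (RNAPII Ser5p) in mouse embryonic stem cells (mESCs). They are 1980 NELFA and 4490 Ser5p peaks, 6470 of the 128567 peaks in the 7 lists of the series, and no peak was left out. The cells were of the E14TG2a (E14) line, derived from the early mouse embryo and grown with LIF and serum, and carried NELFA fused to a GFP tag. NELFA was pulled down with an antibody against GFP, and Ser5p with an antibody against the modified polymerase in the same NELFA-tagged cells. Whether the tagged line is 1 clone, and which input library served as the control, is not given in the sources used here. Lists of Ctr9-GFP (a subunit of the Paf1 complex, from a pool of knock-in mESCs), H3K27ac (a histone mark of active promoters and enhancers) and RNAPII Ser2p (the elongating form) from E14 mESCs were used beside them, together with 1 mESC RNA-seq library.

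NELFA is a subunit of the negative elongation factor, NELF. After RNAPII has begun to transcribe, NELF and its partner DSIF hold it shortly after the start of the gene, a state called promoter-proximal pausing, until the kinase P-TEFb phosphorylates both and NELF leaves. Serine 5 of the repeats in the polymerase tail is phosphorylated by TFIIH as transcription begins, so Ser5p marks polymerase that has started, whether paused or moving. NELF also takes part in forming the ends of histone and small nuclear RNAs. The comparison below asks where and how far both signals coincide.

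Each list comes from 1 library with no replicate, so nothing below is a test across replicates. Shares carry 95% exact Clopper-Pearson intervals and medians 95% exact order-statistic intervals, both of which cover counting error within the list only. The study's methods name a target number of reads for sequencing, but the reads behind each list were not analysed here, so the depth reached is unknown, and a region without a called peak may hold signal below the authors' q-value cutoff of 0.01. The RNA-seq library gave 26400407 estimated counts and carried the markers of mESCs (Pou5f1 1402, Sox2 364 and Nanog 281 TPM, the transcript abundance scaled for length and depth), with the fibroblast collagens Col1a1 and Col1a2 at 0.203 and 0.132 TPM.

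The sequences at a few gene starts are printed as examples of the 3 kinds of promoter described below. A gene "with both" had the summit of a NELFA peak and of a Ser5p peak (the base with the most fragments) within 1 kb of its annotated start, and a gene "with only" one of them had a summit of that list alone. The stretches are from GRCm38 (mm10), run 5′ to 3′ along the gene from 150 bases before to 30 bases after the annotated start, and have in capitals the matches, on either strand, to TATAAA (the TATA box), CCAAT and GGGCGG (the GC box). Hist1h1a and Polr2a, with both, held the highest NELFA folds of a histone and of a non-histone gene with no small nuclear RNA gene nearby.
Hist1h1a (chr13:23763515-23763694, plus strand): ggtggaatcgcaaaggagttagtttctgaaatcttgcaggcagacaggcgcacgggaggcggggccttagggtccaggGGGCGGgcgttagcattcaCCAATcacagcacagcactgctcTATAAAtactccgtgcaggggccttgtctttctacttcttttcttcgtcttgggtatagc
Polr2a (chr11:69758607-69758786, minus strand): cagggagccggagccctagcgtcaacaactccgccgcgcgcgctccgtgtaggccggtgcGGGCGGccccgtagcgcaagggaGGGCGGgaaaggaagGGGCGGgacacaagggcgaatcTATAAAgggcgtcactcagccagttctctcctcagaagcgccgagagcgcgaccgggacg
Ddit4 and Fos had only NELFA.
Ddit4 (chr10:59951804-59951983, minus strand): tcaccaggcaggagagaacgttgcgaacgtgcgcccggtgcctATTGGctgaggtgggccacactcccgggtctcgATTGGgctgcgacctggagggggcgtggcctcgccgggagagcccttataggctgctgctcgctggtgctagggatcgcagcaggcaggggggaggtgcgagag
Fos (chr12:85473739-85473918, plus strand): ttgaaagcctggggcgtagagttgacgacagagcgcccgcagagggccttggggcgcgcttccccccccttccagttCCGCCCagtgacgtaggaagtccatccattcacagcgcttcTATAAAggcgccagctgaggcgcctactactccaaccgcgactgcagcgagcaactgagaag
Zfp706 and Pou5f1 had only Ser5p.
Zfp706 (chr15:37007743-37007922, minus strand): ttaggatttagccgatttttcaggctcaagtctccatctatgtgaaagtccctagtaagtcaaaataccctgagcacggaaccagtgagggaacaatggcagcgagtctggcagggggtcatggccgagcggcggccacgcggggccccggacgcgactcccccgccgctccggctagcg
Pou5f1 (chr17:35505867-35506046, plus strand): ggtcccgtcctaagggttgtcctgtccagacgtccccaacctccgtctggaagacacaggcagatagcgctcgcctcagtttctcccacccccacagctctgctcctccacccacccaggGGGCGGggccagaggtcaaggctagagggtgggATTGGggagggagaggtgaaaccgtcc
Hist1h1a, Polr2a and Fos each hold a TATA box close before the start, and the printed stretches of the other 3 genes hold none. These 6 stretches do not stand for their classes: Rpl30, with only Ser5p, holds TATAAA too, 52 bases before its start, and the shares over each class are given below.

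Most NELFA peaks overlapped Ser5p peaks, and most Ser5p peaks lay elsewhere. Of the NELFA peaks, 1287 (65.0%, 62.9 to 67.1) overlapped a Ser5p peak by at least 1 bp, and of the Ser5p peaks, 1240 (27.6%, 26.3 to 29.0) overlapped a NELFA peak. The Ser5p list covered 2938 kb and the NELFA list 765 kb, with median widths of 414 and 321.5 bp. Few overlaps were multiple: 9 NELFA peaks met more than 1 Ser5p peak, and 49 Ser5p peaks held more than 1 NELFA peak, at most 4. With the Ser5p list reduced to its 1980 peaks of lowest q-value, 45.5% of NELFA peaks overlapped it and 42.7% of those Ser5p peaks overlapped NELFA. With lists of equal number and few multiple overlaps, both shares must be close, so their closeness is no result of its own.

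Stronger peaks were shared more often in both lists. Fold enrichment is the ratio, given by the peak caller, of fragments at the summit to the local background. With the NELFA list split by fold into 5 groups of equal size, from the weakest to the strongest, 57.3%, 53.3%, 58.8%, 67.2% and 88.4% overlapped Ser5p. For Ser5p peaks the same split gave 16.04%, 14.9%, 21.5%, 27.7% and 57.9%. In either list the strongest group stood above all others beyond the counting intervals, and the intervals of the lower 3 NELFA groups overlapped. The gradient was also present away from genes' starts, where 4.31% of the weakest and 37.2% of the strongest of 5 such groups of Ser5p peaks overlapped NELFA.

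NELFA peaks were least often shared, and Ser5p peaks most often, at gene starts. Of NELFA peaks within 1 kb of a protein-coding gene start, 896 of 1509 (59.4%, 56.8 to 61.9) overlapped Ser5p, against 35 of 38 within 1 kb of a gene end (92.1%), 165 of 216 in gene bodies (76.4%) and 191 of 217 elsewhere (88.0%, 82.9 to 92.0). Of Ser5p peaks, 51.5% of 1706 at gene starts overlapped NELFA, against 6.02% of 482 at gene ends, 13.5% of 1158 in gene bodies and 15.4% of 1144 elsewhere.

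**Figure D1:**
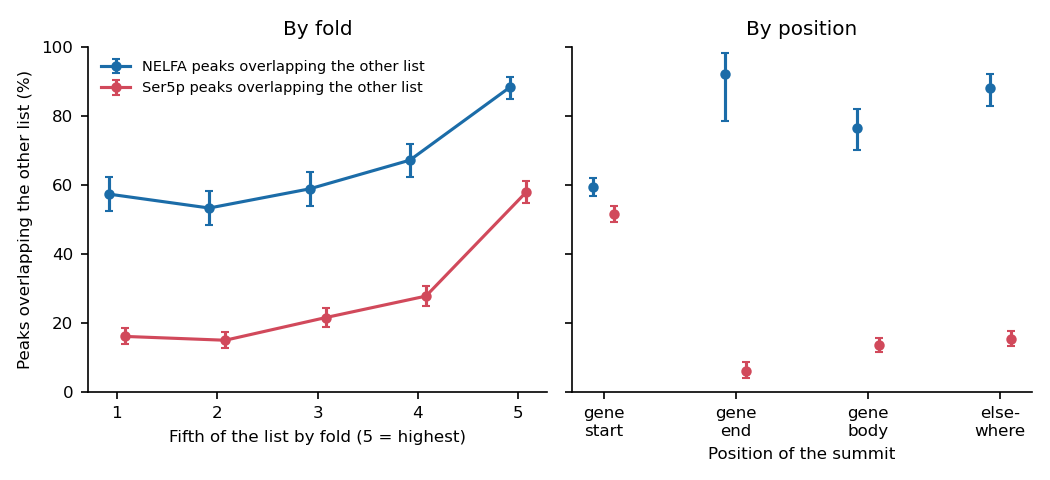
Share of NELFA (blue) and Ser5p (red) peaks that overlapped the other list, in percent, by group of fold, with 5 groups of equal size (left), and by position of the summit (right). Points are shares and bars 95% exact intervals, and the strongest group reached 88.4% for NELFA and 57.9% for Ser5p.

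Where both were called, the summits lay close together. In the 1287 pairs, each NELFA peak with the overlapping Ser5p peak of nearest summit, the median distance between summits was 58 bp (54 to 63), and 68.1% were within 100 bp and 95.1% within 500 bp. DNA had been sheared to fragments longer than most of these distances, per the labels. At the 896 gene-start pairs, the NELFA summit lay at a median of 48 bp (39 to 58) downstream of the start and the Ser5p summit at 57 bp (48 to 68). Along the gene the Ser5p summit was 5.5 bp (1 to 12) beyond the NELFA summit at the median, downstream in 53.9% of pairs and upstream in 45.2%. The middle 50% of these offsets ran from -51 to 59 bp, so the shift was small beside the spread between genes.

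**Figure D2:**
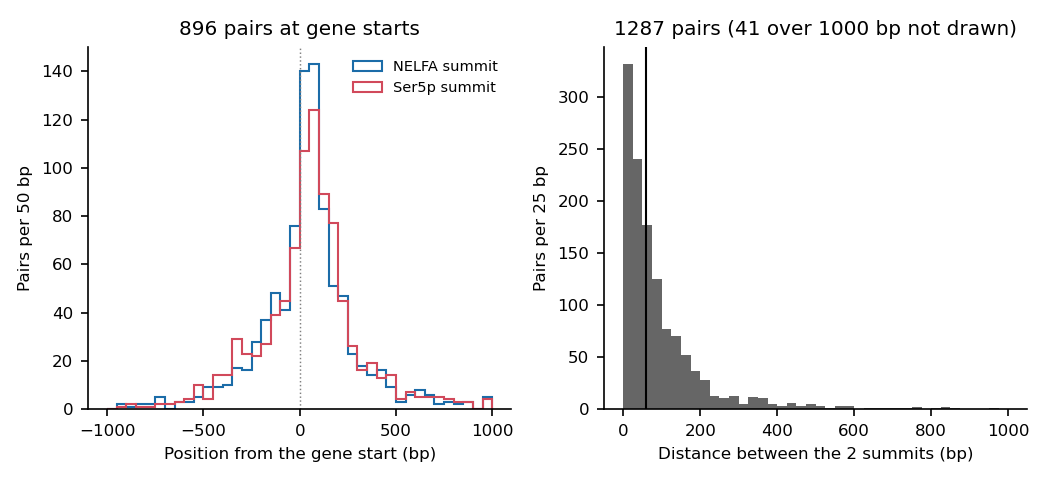
Left, position of the NELFA (blue) and Ser5p (red) summits from the gene start in bp for the 896 pairs at gene starts, counted per 50 bp, with Ser5p summits beyond 1000 bp not drawn. Right, distance in bp between the summits of all 1287 pairs, counted per 25 bp, with the median of 58 bp as a line.

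Ser5p peaks were wider than their NELFA partners, above all away from gene starts. The Ser5p peak was the wider in 77.6% of pairs, and 54.9% of NELFA peaks lay wholly inside their partner. The median ratio of Ser5p to NELFA width was 1.51 (1.43 to 1.58), 1.35 (1.29 to 1.43) at gene starts and 2.09 (1.82 to 2.44) away from them. The ratio of Ser5p to NELFA fold moved the same way, at 1.01 (0.986 to 1.04) and 1.34 (1.29 to 1.41). Folds come from separate libraries and backgrounds, so a ratio near 1 says nothing about equal amounts of both proteins.

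The pairs with summits farthest apart lay in long Ser5p peaks that held more than 1 NELFA peak. The widest Ser5p peak, 9331 bp with a fold of 20.4, had its summit 199 bp from the start of Malat1, an abundant nuclear long noncoding RNA. It held a NELFA summit 155 bp from its own and further NELFA peaks, of 6.09 and 4.01, at 7374 and 5638 bp. At Eif4a2, a translation initiation helicase, the Ser5p peak (8815 bp, fold 17.5) had its summit 890 bp after the start. NELFA peaks of 10.8 and 4.96 lay 554 and 6188 bp from that summit, the second at the gene end. The Ser5p peak nearest Mir295, of a microRNA cluster highly expressed in mESCs, had a fold of 30.4, with NELFA summits 272 and 4077 bp from its own. NELFA was thus called both close to the Ser5p summit and as separate narrow peaks elsewhere in these regions.

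The ranks of fold were moderately alike in pairs. Spearman's rho was 0.409 over the 1287 pairs, 0.468 over those at gene starts and 0.399 over the others, and that of width was 0.310. These are descriptions, since all pairs come from the same pair of libraries and cells. Of the 128 pairs in the top 10% by NELFA fold, 73 were also in the top 10% by Ser5p fold. Over 4 groups of nearly equal size, from the strongest to the weakest by NELFA, the median Ser5p fold was 9.60, 5.72, 5.17 and 5.09, so the difference lay mostly in the strongest group.

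Histone and small nuclear RNA genes made up much of that strong end. Small nuclear RNAs (snRNAs) are the RNA cores of the splicing machinery, and the replication-dependent histone genes supply histones during DNA synthesis. Neither kind of RNA carries a poly(A) tail. The 31 pairs within 1 kb of an snRNA gene had a median NELFA fold of 15.7 (11.6 to 18.6) and a median Ser5p fold of 18.9 (16.1 to 22.7), and the 31 pairs at histone genes 15.0 (13.8 to 18.2) and 18.1 (15.8 to 20.3). The 861 pairs at other gene starts had medians of 5.39 and 5.41, and the 364 elsewhere 4.78 and 6.66. Of the 73 pairs in the top 10% of both lists, 20 were at snRNA and 23 at histone genes. Without both kinds, rho over the other 1225 pairs was 0.330, an alternative chosen after the values were seen. These pairs were also nearly equal in width, with a Ser5p to NELFA ratio of 1.12 (1.06 to 1.18) at snRNA and 1.18 (1.12 to 1.25) at histone genes.

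**Figure D3:**
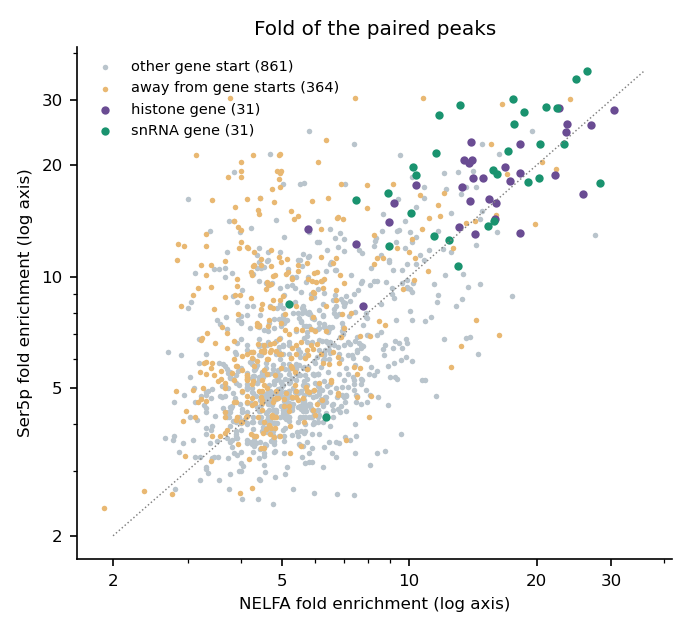
NELFA fold (x axis) and Ser5p fold (y axis), both on log axes, of the 1287 paired peaks, with the dotted line at equal folds. The pairs at snRNA genes (green, 31) and histone genes (purple, 31) lie at the upper right, with medians of 15.7 and 18.9 and of 15.0 and 18.1, while the pairs at other gene starts (grey, 861) centre on 5.39 and 5.41.

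Of the 1383 annotated snRNA genes, most of them copies with no peak, 32 had both, 1 only NELFA and 5 only Ser5p. The strongest Ser5p peak of the whole list (fold 35.9) and a NELFA peak of 26.2 lay at Gm22068, a U1 gene whose 164 bases are identical to those of Rnu1a1, itself at 11.6 for NELFA and 21.6 for Ser5p. Gm23849 equals Rnu2-10, a gene of U2, over its whole length, and had 24.8 and 34.1, against 20.4 and 22.7 at Rnu2-10. Their sequences on GRCm38 are printed because they are the transcribed parts at the strongest Ser5p peaks.
Gm22068 (chr11:87426716-87426879, plus strand): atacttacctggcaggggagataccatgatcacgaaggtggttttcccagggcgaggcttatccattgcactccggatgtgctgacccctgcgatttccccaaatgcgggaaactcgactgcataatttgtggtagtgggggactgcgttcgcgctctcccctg
Gm23849 (chr11:101627366-101627556, plus strand): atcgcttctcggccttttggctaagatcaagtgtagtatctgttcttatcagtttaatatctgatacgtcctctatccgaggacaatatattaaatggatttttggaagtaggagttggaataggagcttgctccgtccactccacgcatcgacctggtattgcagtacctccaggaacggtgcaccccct
Beyond these, Rnu11 and Rnu12, of the minor spliceosome, had 19.02 and 18.0, and 10.1 and 14.9, for NELFA and Ser5p. Rnu7, which serves histone RNA processing, had 15.8 and 14.1. The protein-coding genes Poldip3 and Grcc10 start within 1 kb of Rnu12 and Rnu7, so those peaks cannot be assigned to the snRNA genes alone. Of the snRNA genes with a peak, 6 were as long as Rnu1a1 with 97.6% to 100% identity, and 12 as long as Rnu2-10 with 95.3% to 100%. Reads within such copies cannot be assigned with certainty to one of them, so how the signal divides among copies is uncertain. The 5 genes with only Ser5p were Gm23238 (14.5), Gm24136 (8.53), Gm26479 (7.58), Gm26110 (6.90) and Gm25008 (5.41), named after their values were seen. Rnu3b2, a gene of the U3 small nucleolar RNA, had a NELFA fold of 24.0 and a Ser5p fold of 30.1.

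Of the 67 replication-dependent histone genes, 33 carried both at the start, 5 only NELFA, 4 only Ser5p and 25 neither, where 4.62%, 3.34% and 3.35% of all protein-coding genes fell in the first 3 classes. Median folds where called were 14.6 for NELFA and 18.4 for Ser5p. Hist1h1a, of linker histone H1, had NELFA at 30.5, the highest fold of that list, 133 bp after the start, and Ser5p at 28.2, 199 bp after it. Hist1h4i had 26.9 at 166 bp and 25.6 at 158 bp. Hist1h4d had 23.5 at 82 bp and 25.8 at 133 bp, and Hist1h2ac and Hist1h2bc, which share their peaks, had 22.5 and 28.6. The 5 widest NELFA peaks were all in the histone cluster of chromosome 13, from 2363 to 3434 bp.

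At all but 1 of the histone genes with a summit of 1 list alone, a peak of the other list still reached the window. This was so at Hist1h3h (NELFA 25.7), Hist1h3g (22.1), Hist1h3d (13.5) and Hist1h2bb, where the Ser5p summit lay 1191 to 1684 bp from the start. At Hist1h3a (Ser5p 23.1), Hist1h2af (18.8), Hist1h2bl and Hist1h2ai (16.6, a shared peak), the nearest NELFA summit lay 1311 to 1649 bp away. The exception was Hist3h2ba (NELFA 4.02), whose nearest Ser5p summit lay 5793 bp away. Over all genes such overlaps were uncommon: 24 of 733 genes with only NELFA had a Ser5p peak in the window, and 9 of 734 with only Ser5p a NELFA peak.

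Among all 21938 protein-coding genes, 1013 had both (4.62%), 733 only NELFA (3.34%), 734 only Ser5p (3.35%) and 19458 neither. With the Ser5p list reduced to as many peaks as NELFA, the first 3 counts were 634, 1112 and 244, so the near-equal numbers with only NELFA and only Ser5p depend on the length of the lists. NELFA as a whole was at 7.96% of gene starts and so was Ser5p. Neighbouring genes that share a start region also share a peak, so genes are not independent counts. The mRNA levels differed between the classes. Genes with both had a median of 40.1 TPM (36.1 to 44.2), genes with only Ser5p 24.5 (21.7 to 28.9), genes with only NELFA 19.9 (17.9 to 22.7) and genes with neither 0.527 (0.476 to 0.584). The first stood above the other 2 occupied classes, and the intervals of those 2 overlapped slightly. Both signals grew commoner with mRNA level: 0.261% of genes listed at 0 TPM had both, 7.84% of those from 10 to below 50, 17.6% of those from 50 to below 200 and 44.0% of the 400 genes at 200 and over. The share with only NELFA did not follow that rise, at 7.86%, 9.17% and 7.25% of the same 3 upper bands.

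Apart from histones and genes beside snRNAs, the strongest gene starts with both were of varied function. Polr2a, the largest subunit of RNAPII itself, had NELFA at 27.5 and Ser5p at 12.9, with summits 7 bp apart. Dnajb14, a chaperone partner, had the reverse, at 5.79 and 24.7. The high peaks within 1 kb of Rdm1, Alyref2 and Eapp lay beside the snRNA genes Gm23849, Gm24871 and Gm22513, so they cannot be assigned to those coding genes. Gtf3c6, of a factor for RNA polymerase III, had 19.5 and 24.7, at 569 and 495 bp upstream of its start. Nearer that start lay separate, weaker peaks, with NELFA at 6.49 (26 bp after it) and Ser5p at 6.65 (417 bp after it). Actb, cytoplasmic actin, had 13.1 at 75 bp and 19.2 at 63 bp. A further pair at Actb, with 3.22 and 10.7, lay 4369 bp after the start, past the end of the gene.

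Genes with only NELFA had lower NELFA folds. Their median NELFA fold was 4.68, against 5.51 in genes with both. Arid5a, an RNA-binding regulator of inflammatory transcripts, had 10.4 with the nearest Ser5p summit 677999 bp away. Ddit4, a stress-induced inhibitor of mTORC1, had 9.90, and Vegfa, the vascular growth factor, 9.58, with the NELFA summit 38 and 96 bp after the start. Their nearest Ser5p summits lay 729949 and 211004 bp away. Ier2 (9.51), Rcc1 (10.2) and the ribosomal gene Rpl41 (14.8) also fell in this class, but each had a Ser5p peak reaching its window with the summit 1083, 3006 and 1486 bp away.

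Of 20 immediate early genes, transcription factors and others that signals induce within minutes, 4 had both, 5 only NELFA, none only Ser5p and 11 neither, against 4.62%, 3.34% and 3.35% of all genes in the first 3 classes. Those with only NELFA were Myc (8.10), Fos (7.93), Jun (4.50), Btg2 (3.88) and Ier2. Fos had its NELFA summit 56 bp after the start at an mRNA level of 2.73 TPM, and its nearest Ser5p summit lay 203224 bp away. Klf6 (13.4 and 10.1), Jund (11.6 and 8.55), Junb (10.8 and 11.1) and Ier3 (5.51 and 5.42) had both for NELFA and Ser5p. Egr1 had neither by this window, and its nearest NELFA and Ser5p summits lay 1482 and 1582 bp from its start. Zfp36 also counted as neither, although peaks of both lists reached its window, with summits 1058 and 1145 bp away. Dusp1 counted as neither too, with its nearest NELFA and Ser5p summits 53744 and 53770 bp from the annotated start. A Ser5p peak nevertheless lay in or near that gene.

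Of 20 pluripotency genes, 8 had both, none only NELFA, 6 only Ser5p and 6 neither, where 4.62%, 3.34% and 3.35% of all genes fell in the first 3 classes. Their median mRNA level was 173.8 TPM, against 7.68 TPM for the immediate early genes, and the difference between both lists was not tested. Sox2, one of the core factors, had NELFA at 4.85 and Ser5p at 14.2, Nanog 5.79 and 11.3, Klf2 8.13 and 10.5, Tdgf1 (the Nodal co-receptor) 8.60 and 11.4, and Zfp42 6.82 and 7.98. In all 8 the Ser5p fold was the higher. It was so in 59.1% of all pairs, and in 51.0% of those at gene starts other than histone and snRNA genes. These 2 shares are of pairs of peaks and not of genes. Among all genes with both, median NELFA and Ser5p folds were 6.02 and 7.82 at 200 TPM and over. From 50 to below 200 TPM they were 5.39 and 5.31. The part of mRNA level in the higher Ser5p folds of the 8 genes was not tested. Only Ser5p was called at Pou5f1 (6.96), which encodes Oct4, with the nearest NELFA summit 2294 bp away, and at Dppa5a (9.52), Sall4 (6.94), Nr0b1 (5.99), Klf4 (5.09) and Utf1 (3.71). Esrrb had neither at its annotated start, despite 211 TPM and a Ser5p peak in the gene.

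Housekeeping groups differed in how often both were present. Of all protein-coding genes, 4.62% had both, 3.34% only NELFA, 3.35% only Ser5p and 88.7% neither. From 50 to below 200 TPM these shares were 17.6%, 9.17%, 11.2% and 62.0%. At 200 TPM and over they were 44.0%, 7.25%, 15.0% and 33.75%. This last band contains most of the ribosomal protein genes counted next, so it is not a separate background for them. Of 80 cytosolic ribosomal protein genes, 57 had both, 6 only NELFA, 6 only Ser5p and 11 neither, with median folds of 5.82 for NELFA and 8.24 for Ser5p. Those with neither include the paralogs Rpl3l, Rpl10l and Rpl39l, at 0.691, 15.5 and 27.8 TPM. They also include Rps10 and Rps2, whose NELFA and Ser5p summits lay 1476 and 1466 bp, and 1945 and 1940 bp, from the start. From 1 kb upstream to 5 kb downstream of the gene, 77 of the 80 held a Ser5p peak. Rps9 (13.6 and 17.5) and Rplp0 (13.8 and 9.35) were among the highest with both, and Rpl30 had only Ser5p at 11.2. Of those with only NELFA, Rpl12, Rpl13a, Rpl36, Rpl41 and Rps28 had a Ser5p peak reaching the window, and Rpl29 had none. Of 12 genes of the SR family of splicing factors, 7 had both, none only NELFA, 2 only Ser5p and 3 neither. Their NELFA folds were high, with a median of 9.62, as at Srsf7 (12.6 and 11.7), Srsf2 (12.1 and 10.1) and Srsf5 (10.0 and 9.24). Heat shock and chaperone genes were spread over all classes, with 5, 3, 5 and 3 of 16. Hspa8 had 5.63 and 17.9, and Hspa1b, the inducible Hsp70, had only NELFA at 5.38. Of 13 glycolysis genes, 2 each had both, only NELFA and only Ser5p, and 7 had neither. Median mRNA levels were 1601 TPM for the ribosomal, 135 for the SR, 417 for the heat shock and 537 for the glycolysis genes. The part of mRNA level in these counts was not tested.

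**Figure D4:**
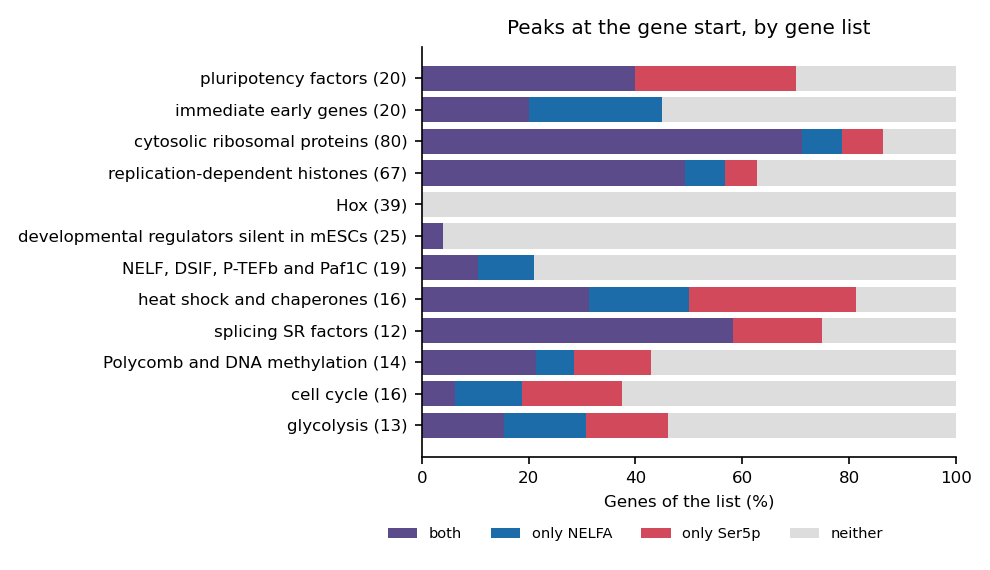
Share of the genes of each list, in percent, with a summit of both, only NELFA, only Ser5p or neither within 1 kb of the start, with the number of genes in brackets. Of 80 ribosomal protein genes 57 had both, of 20 immediate early genes 5 had only NELFA and none only Ser5p, and of 39 Hox genes all had neither. Over all protein-coding genes, 4.62% had both, 3.34% only NELFA, 3.35% only Ser5p and 88.7% neither.

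Hox and developmental genes had next to no peak of either kind, as was so for most genes of such low mRNA level. Neither was called at 88.7% of all protein-coding genes, 99.5% of those listed at 0 TPM and 98.4% of those above 0 to below 1. None of 39 Hox genes had a summit within 1 kb, and their highest mRNA level was 1.41 TPM. Of 25 developmental regulators listed as silent in mESCs, 24 had neither, and Bmp4 had both (5.96 and 7.69) at 120 TPM, so it was not silent here. Of 19 genes of the pausing machinery, 2 had both, 2 only NELFA and 15 neither (78.9%, against 88.7% of all protein-coding genes). Hexim1, an inhibitor of P-TEFb, had 9.89 and 6.64, Supt5, of DSIF, 5.08 and 3.71, and only NELFA was called at Nelfa (4.90) and Paf1 (4.28). Polycomb and DNA methylation genes (3, 1, 2 and 8 of 14) and cell cycle genes (1, 2, 3 and 10 of 16) had neither in 57.1% and 62.5%, below the 88.7% of all genes. Median mRNA levels were 37.7 TPM for the pausing genes and 75.1 and 60.5 TPM for the last 2 groups. Of all genes from 10 to below 50 TPM 77.2% had neither, and of those from 50 to below 200 TPM 62.0%.

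Peaks of NELFA alone differed from shared peaks in the other chromatin signals. The 693 NELFA-only peaks had a median fold of 4.68 and width of 272 bp, against 5.26 and 362 bp for the 1287 shared peaks, and 88.5% of them (85.8 to 90.7) were at gene starts, against 69.6% (67.0 to 72.1). Few were near misses, since 4.18% had a Ser5p summit within 1000 bp and 10.97% within 10000 bp. At gene starts, a Ctr9 peak overlapped 8.32% (6.26 to 10.8) of NELFA-only peaks and 53.3% (50.0 to 56.7) of shared ones, and a Ser2p peak 0.979% and 11.3%. H3K27ac was nearly as common at the former, with 84.3% (81.2 to 87.1) and 89.7% (87.6 to 91.6). NELFA-only starts thus mostly carried the active histone mark and seldom a called Ctr9 or Ser2p peak. NELFA-only and weaker peaks coincide, and the part of peak strength in these shares was not tested.

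Ser5p alone was spread along genes. Of the 3250 Ser5p-only peaks, 25.4% were at gene starts, 13.9% at gene ends, 30.8% in gene bodies and 29.8% elsewhere, while 70.9% of the shared Ser5p peaks were at gene starts. Away from gene starts, a Ctr9 peak overlapped 89.2% (87.9 to 90.4) of Ser5p-only peaks, a Ser2p peak 26.4% and H3K27ac 38.8% (36.8 to 40.8). For shared Ser5p peaks away from gene starts the shares were 80.6%, 23.3% and 83.4% (79.1 to 87.1). Outside gene starts, H3K27ac thus accompanied shared Ser5p peaks more often than Ser5p-only peaks, and Ctr9 most peaks of both kinds. The shared ones there were also wider and stronger, with a median width of 775 bp and fold of 6.72, against 391 bp and 4.46. The part of width and strength in these shares was not tested. At gene starts too, Ser5p-only peaks overlapped Ctr9 (63.5%, 60.1 to 66.8) more often than NELFA-only peaks did. The Ctr9 list covers 32750 kb, against the 2938 kb of Ser5p, and how far its breadth enters these shares was not tested.

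**Figure D5:**
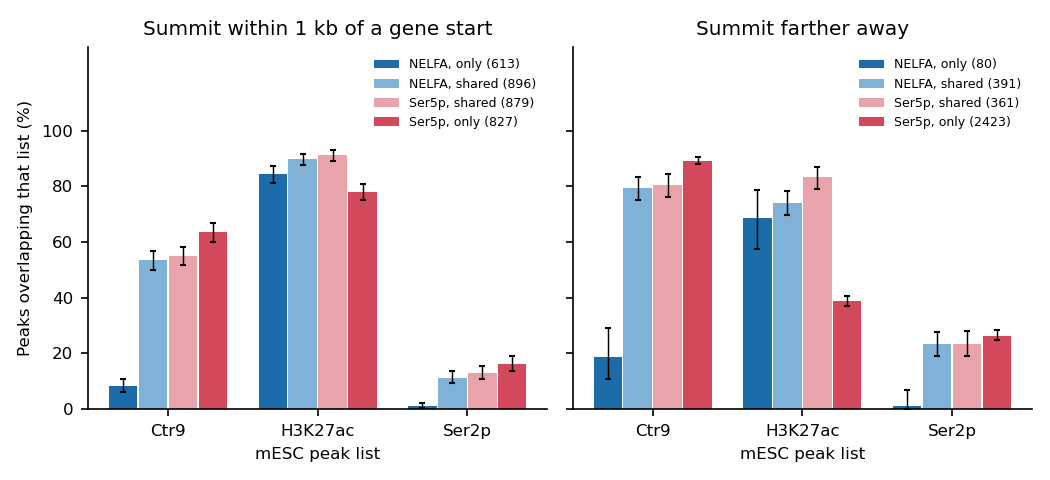
Share of peaks, in percent, that overlapped a Ctr9, H3K27ac or Ser2p peak in mESCs, for summits within 1 kb of a gene start (left) and farther away (right), by class of peak with their number in brackets, with 95% exact intervals. NELFA-only peaks at gene starts overlapped Ctr9 in 8.32% and H3K27ac in 84.3%, and Ser5p-only peaks there overlapped Ctr9 in 63.5%.

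Read over whole genes, the contrast was smaller. A Ctr9 peak lay in the region from 1 kb upstream to 5 kb downstream of 95.7% of genes with both, 92.6% with only Ser5p and 85.9% (83.2 to 88.4) with only NELFA. Within 1 kb of the start the shares were 66.5%, 70.4% and 18.7% (15.9 to 21.7). A Ser2p peak lay in 39.7%, 39.6% and 11.2% (8.997 to 13.7) of the genes. Genes with neither held Ctr9 in 38.0% over the whole gene and 8.20% at the start, and Ser2p in 3.93%. With all mRNA levels pooled, genes with only NELFA thus lay between those with neither and the other 2 classes in all 3 shares. The size of the Ser2p contrast varied with mRNA level. Genes with both, only Ser5p and only NELFA held Ser2p in 22.3%, 30.8% and 12.1% from 10 to below 50 TPM, and in 43.2%, 47.7% and 9.22% from 50 to below 200 TPM. At 200 TPM and over the shares were 84.1%, 63.3% and 51.7%, the last being 15 of 29 genes. Genes with neither held Ser2p in 7.71%, 13.4% and 27.4% in the same bands. From 50 to below 200 TPM their share (128 of 954 genes) was above that of genes with only NELFA (13 of 141). The pooled order was thus not seen there, but no intervals were computed for these shares. Whether that difference exceeds counting error was not tested.

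Away from all protein-coding starts, shared peaks were often at other transcription units. Of the 391 shared NELFA peaks more than 1 kb from a protein-coding start, 26.3% were within 1 kb of the start of a noncoding gene, among them 25 at snRNA, 21 at lincRNA, 15 at antisense, 10 at processed transcript and 9 at snoRNA genes. The share was 17.5% of the 80 NELFA-only peaks and 8.83% of the 2423 Ser5p-only peaks there. Over 5 kb from any protein-coding start, the strongest NELFA-only peak had a fold of 7.36, far below the 26.2 of the strongest shared one. The strongest Ser5p-only peak there, at 14.7 and 4417 bp wide, lay in the body of Spats1. Of 231 super-enhancers, dense enhancer clusters taken from the study as coordinates, 50 overlapped both lists, 96 only Ser5p, 85 neither and 0 only NELFA (0%, up to 1.58%). Ser5p was thus at 63.2% and NELFA at 21.6% of them. The study reports higher occupancy of super-enhancers for both, and the source of the difference was not tested. Other regions of like size were not counted beside them.

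The base composition of the starts differed little between the occupied classes. In the 300 bases from 250 before to 50 after the start, the median GC content was 61.0%, 61.3% and 59.3% in genes with both, only NELFA and only Ser5p, and 55.0% over all 21938 gene starts. The observed over expected CpG ratio was 0.852, 0.836 and 0.784, and 0.524 over all. Searched on both strands, TATAAA was in 11.1% (9.19 to 13.2) of starts with both, 7.09% (5.35 to 9.20) with only NELFA and 5.59% (4.04 to 7.50) with only Ser5p, and in 12.6% of all. Without the histone genes the first was 9.59%. Of the 33 histone genes with both, 54.5% held TATAAA and 75.8% CCAAT, which was in 39.0% of all starts. Of the 25 histone genes with neither, 56.0% held TATAAA and 88.0% CCAAT, so these motifs were not particular to histone genes with both. CCGGAAG (the ETS core) was in 20.9%, 25.4% and 22.3% of the 3 classes and 10.8% of all, and GCATGCGC, as bound by NRF1, in 6.32%, 9.14% and 5.59%, with 3.70% of all. GGGCGG was in 67.3%, 65.9% and 58.9% and 43.0% of all, CACGTG (the E-box) in 11.8%, 12.4% and 10.4% and 7.78% of all, and AAGATGGCG, as bound by YY1, in 4.15%, 5.32% and 4.77% and 1.69% of all. The 4577 genes with neither peak but at least 10 TPM came close to the occupied classes in most of these measures, with a GC content of 59.0%, a CpG ratio of 0.758, TATAAA in 6.64%, CCAAT in 41.4%, GGGCGG in 61.7%, CCGGAAG in 19.9%, CACGTG in 11.3%, GCATGCGC in 5.79% and AAGATGGCG in 3.41%. A match is a count of letters and not a bound site.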

How the data were processed

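ChIP-seq peaks and RNA-seq levels of E14 mESCs were analysed as deposited, 1 library per list. ChIP-seq reads had been mapped by the authors to the mm10 genome using Bowtie2 2.3.5.1. Those in blacklisted regions (ENCODE) were discarded, and MACS2 2.2.6 then called peaks, keeping q-values up to 0.01. The deposited lists give a score per peak, the fold enrichment as a ratio over the local background, and -log10 p and -log10 q values at the summit. The authors quantified RNA-seq with kallisto 0.46.1 on GENCODE M19, and the deposited table gives TPM and estimated counts per transcript.

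Peaks were joined to each other by an overlap of at least 1 bp, and to 21938 protein-coding genes of GENCODE M21 (GRCm38, the build of the files) by summits within 1 kb of the annotated gene start. The TPM of a gene is that of its highest transcript. Genes were named by rank of fold in each class, by membership of a gene list, as the farthest pairs and widest peaks, or because the study discusses them, and the members and lists were chosen with earlier results of these data known. Sequences were read from GRCm38, and 148 of 148 windows whose start is the same in RefSeq had equal letters. Super-enhancer coordinates came from the study's supplement. Python 3.11.15, NumPy 2.4.6, pandas 2.3.3, SciPy 1.17.1 and Matplotlib 3.10.9 were used, and the scripts were tested on simulated data. Alternatives varied the overlap rule, q-value, number of Ser5p peaks, window around starts, summary statistic and TPM per gene. NIH3T3 RNA-seq was not used here. One of the sequences considered, with the results that need it, is not reported here.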

Additional observations from a re-analysis of the deposited data

How the results depend on the processing

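Of 64 alternatives to 17 results, 31 stayed within the counting interval or 1.5 times the count, 33 moved and 0 reversed, and the causes were not tested. With the Ser5p list reduced to as many peaks as NELFA, the share of NELFA peaks overlapping Ser5p was 45.5% and that of Ser5p peaks 42.7%, and the genes with both, only NELFA and only Ser5p numbered 634, 1112 and 244. The NELFA share was 62.3% with a summit required inside the other peak, 62.0% with a -log10 q of at least 5 in both lists and 67.3% with that in the NELFA list alone. The Ser5p share was 24.4% by summits, 30.6% with gaps of up to 500 bp and 31.4% with the stricter q in the Ser5p list. Means in place of medians gave a summit distance of 165 bp, a signed offset of 13.1 bp and a width ratio of 2.60. The correlation of folds was 0.540 as Pearson's r of log2 folds, 0.461 with the stricter q, 0.468 at gene starts and 0.330 without histone and snRNA genes, the last chosen after seeing the data. The shares at gene starts, with windows of 500 bp and 2 kb and with the starts of any transcript, were 64.9%, 73.2% and 77.3% for shared NELFA, 65.7%, 74.3% and 78.5% for shared Ser5p and 18.7%, 33.7% and 37.2% for Ser5p-only peaks. For NELFA-only peaks, 500 bp gave 84.8% and any transcript 93.9%. TPM summed over transcripts gave medians of 67.4, 31.4, 40.1 and 0.690 for genes with both, only NELFA, only Ser5p and neither. No paired analysis was possible because each list is 1 library. The number of peaks called in each library, and so the depth that is unknown here, limits every count of peaks called in 1 list alone.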

Other observations

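The NELFA and Ser5p peaks of mESCs were also set beside the Ctr9 and H3K27ac lists of NIH3T3, a mouse embryonic fibroblast line, in which neither NELFA nor Ser5p peaks were analysed here. At gene starts, a fibroblast H3K27ac peak overlapped 93.9% (92.1 to 95.3) of shared NELFA peaks, 94.5% (92.3 to 96.1) of NELFA-only peaks and 80.8% (77.9 to 83.4) of Ser5p-only peaks. A fibroblast Ctr9 peak overlapped 52.3% (49.0 to 55.7), 19.4% (16.4 to 22.8) and 34.1% (30.9 to 37.4) of them. Away from gene starts, fibroblast H3K27ac was at 47.6% of shared NELFA peaks and 18.3% of Ser5p-only peaks, against 74.2% and 38.8% for the mESC mark. The intervals cover counting error only, and the depths of both libraries are unknown.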
